A study of Mus musculus with 12 samples.

Results

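The 33 genes of glycolysis and pyruvate metabolism described here comprise glucose and monocarboxylate transporters, the enzymes from hexokinase to pyruvate kinase, the enzymes that set fructose 2,6-bisphosphate, lactate dehydrogenases, the pyruvate dehydrogenase complex with its kinases, and the threonine dehydrogenase Tdh. They were chosen by name from textbook pathways and not by a rule on their values, but earlier results of these data were known at the time. They are 33 of 18084 protein-coding genes with at least 1 counted region, and 183 of the 115000 counted regions overlapped their gene spans or lay within 10 kb of either end. What was measured was chromatin accessibility, by ATAC-seq, in which a transposase cuts open DNA, so a gene value is the number of reads near the gene and not its expression.

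Mouse cells of 4 groups were compared, with 3 libraries each, all of a mixed C57BL/6 and 129 background. MEF are mouse embryonic fibroblasts and were not sorted. Stage1 cells were taken on day 6 of reprogramming, Stage2 cells at day 6 plus 4 further days, and iPSC are induced pluripotent stem cells. Cells of the 3 later groups were gated on an Oct4 reporter that fluoresces green, so sorting cannot be told apart from stage in any comparison with MEF. The reprogramming is labelled 3c enhanced, a term that the sources used here do not explain, and the origin of the replicates is not stated. The p-values may therefore reflect technical spread between libraries alone.

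Glycolysis splits glucose into pyruvate, which is either reduced to lactate in the cytosol or oxidised by pyruvate dehydrogenase in the mitochondrion. Most steps are run by families of isoenzymes with different tissue patterns, so that a cell can change its glucose use by changing which isoform it makes. Mouse pluripotent cells are known for a high flux through glycolysis and for a dependence on threonine breakdown by Tdh, and a shift towards glycolysis is a known feature of reprogramming.

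Libraries held 14310290 to 32229388 reads, of which 1034936 to 6261903 fell in counted regions. The mean share in regions fell from 16.7% in MEF to 7.64% in Stage1, 6.03% in Stage2 and 4.94% in iPSC. The members took 2804 to 16863 reads per library, on average 0.267%, 0.314%, 0.320% and 0.278% of the reads in regions in the 4 groups. Values are CPM, the reads near a gene scaled to a common total of reads in regions with edgeR's TMM factors, and log2 fold changes come from edgeR's quasi-likelihood test with Benjamini-Hochberg adjustment over 17536 genes, called at an adjusted p under 0.05 and given ± SE. The scaling matters here: when all reads of a library were its size, the median of all genes moved to -0.96 for Stage1 against MEF, -0.37 for Stage2 against Stage1, -0.33 for iPSC against Stage2 and -1.70 for iPSC against MEF, so every direction below is relative to the other genes, and a value with whole-library scaling is given wherever it has the other sign. Fewer open cells and less open DNA per cell cannot be told apart, nor can either be told apart from differences between libraries. Within MEF the share in regions ranged from 11.3% to 22.1%. The choice of regions matters too, since 51.9% of those near a gene were in the authors' interval list for MEF alone. Its part was not tested. Of the 183 regions, 79 also lay near another gene, and none was linked to 2 members. The read density outside the regions, if it also ran through them, would make up a median of 10.3% of a member's level in MEF, 17.5% in Stage1, 21.8% in Stage2 and 33.2% in iPSC. Its part in the differences was not tested beyond subtracting it, which kept the sign of every called member except Pdha1 between iPSC and MEF. Sizes changed more. In iPSC against MEF, subtraction left 0.016 for Pdk1, 0.053 for Gapdh and -0.0036 for Pdha1, all called higher without it. The levels were not rescaled after subtraction, so these values are not relative to the other genes. The member median moved from -0.12 to -0.61 in this comparison, and no median over all genes was taken after subtraction. Subtraction gave larger sizes than before for every member called lower there, such as Pgam1 (-1.79), Pfkfb4 (-1.53) and Gpi1 (-0.86). It gave smaller sizes for the members called higher, except Tdh (5.29). For Tdh in MEF that density would make up 84.0% of the level.

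From MEF to Stage1, accessibility near the members differed in both directions. Slc2a3, Slc16a1, Ldhb, Pdk1, Pdk4, Pdha1, Pfkfb1, Pfkfb2, Tpi1 and Tdh were higher in Stage1, although with whole-library scaling Tdh, Slc2a3 and Slc16a1 kept that sign and the other 7 did not, while Slc2a1, Slc16a3, both hexokinases, Gpi1, Pfkl, Aldoa, Pgk1, Pgam1, Eno3, Ldha, Pdk3, Pfkfb3 and Pfkfb4 were lower. That is 10 members higher and 14 lower of 33, with 9 not past the threshold. Of all genes 32.4% were called higher and 32.7% lower, 65.1% in either direction. All 24 calls had no overlap between the libraries of the groups, which held for 61.0% of all genes. The median log2 fold change was 0.05 over the members and -0.01 over all genes. Only Tdh and Slc2a3 were called with a difference of at least 1 on the log2 scale, against 23.4% of all genes. With whole-library scaling, 1 member was higher, Tdh, and 24 were lower, against 7.56% and 69.7% of all genes. With reads in regions as the library size and no TMM factor, 17 were higher and 10 lower, a setting in which the shares of all genes were not computed.

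Between Stage1 and Stage2, 9 members were higher in Stage2 (Slc2a1, Hk2, Pfkp, Gapdh, Ldha, Pdk1, Pdk3, Pdk4 and Pfkfb3, with the other sign for Slc2a1, Hk2 and Pfkfb3 with whole-library scaling) and 4 lower (Pdk2, Pdha1, Pfkfb2 and Pfkfb4). Of all genes 8.53% were called higher and 7.32% lower, 15.9% in either direction, and 15.0% were called without overlap of the libraries. The 13 called members, all without overlap, were 39.4% of the 33. Their differences were small, from -0.52 for Pdk2 to 0.67 for Ldha. With whole-library scaling no member was higher, against 0.354% of all genes, and 3 were lower (Pdk2, Pfkfb2 and Pfkfb4), against 6.88%. At an unadjusted p under 0.05, edgeR passed 17 members with TMM scaling, and 0 higher and 11 lower with whole-library scaling. Without the TMM factor, 7 were called higher and 5 lower. Shares of all genes were not computed at the unadjusted threshold or without the TMM factor. The 4 lower members became 2 without Stage1 replicate 3 or Stage2 replicate 3.

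Between Stage2 and iPSC, Ldhb was higher in iPSC and Pfkl, Pfkp, Tpi1, Eno1 and Pdk1 were lower, whereas 5.8% of all genes were called higher, 3.62% lower and 9.42% in either direction. All 6 calls were without overlap, which held for 8.96% of all genes. The 5 lower members became 2 or 3 without any 1 Stage2 or iPSC library. With whole-library scaling edgeR called no member in either direction, against 0.0% of all genes called higher and 0.222% lower. At an unadjusted p under 0.05 that scaling gave 0 members higher and 14 lower. The share of all genes at the unadjusted threshold was not computed. In iPSC against MEF, 9 members (Slc2a3, Slc16a1, Gapdh, Eno2, Ldhb, Pdk1, Pdk4, Pdha1 and Tdh, of which Tdh alone kept that sign with whole-library scaling) were higher and 12 lower, beside 32.8% and 32.2% of all genes and 65.0% in either direction, and the 21 calls were again without overlap, as for 61.3% of all genes. Of these, 3 (Tdh, Ldhb and Pdk4) differed by at least 1 on the log2 scale, against 21.8% of all genes. With whole-library scaling 1 member, Tdh, was higher and 30 were lower, against 4.54% and 86.5%. The 12 lower were Slc2a1, Hk1, Hk2, Gpi1, Pfkl, Aldoa, Pgk1, Pgam1, Eno1, Eno3, Slc16a3 and Pfkfb4, from -0.38 for Gpi1 to -0.98 for Pgam1. DESeq2 called 9 members higher and 12 lower in Stage1 against MEF, without Pfkl, Aldoa and Pfkfb1, 7 and 2 in Stage2 against Stage1, without Pdk2, Pdk3, Pdha1 and Pfkfb3, 1 and 3 in iPSC against Stage2, without Tpi1 and Eno1, and 8 and 12 in iPSC against MEF, without Pdha1. Shares of all genes called by DESeq2 were not computed. The 4 comparisons share libraries, since each middle group enters more than 1 of them.

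**Figure D1:**
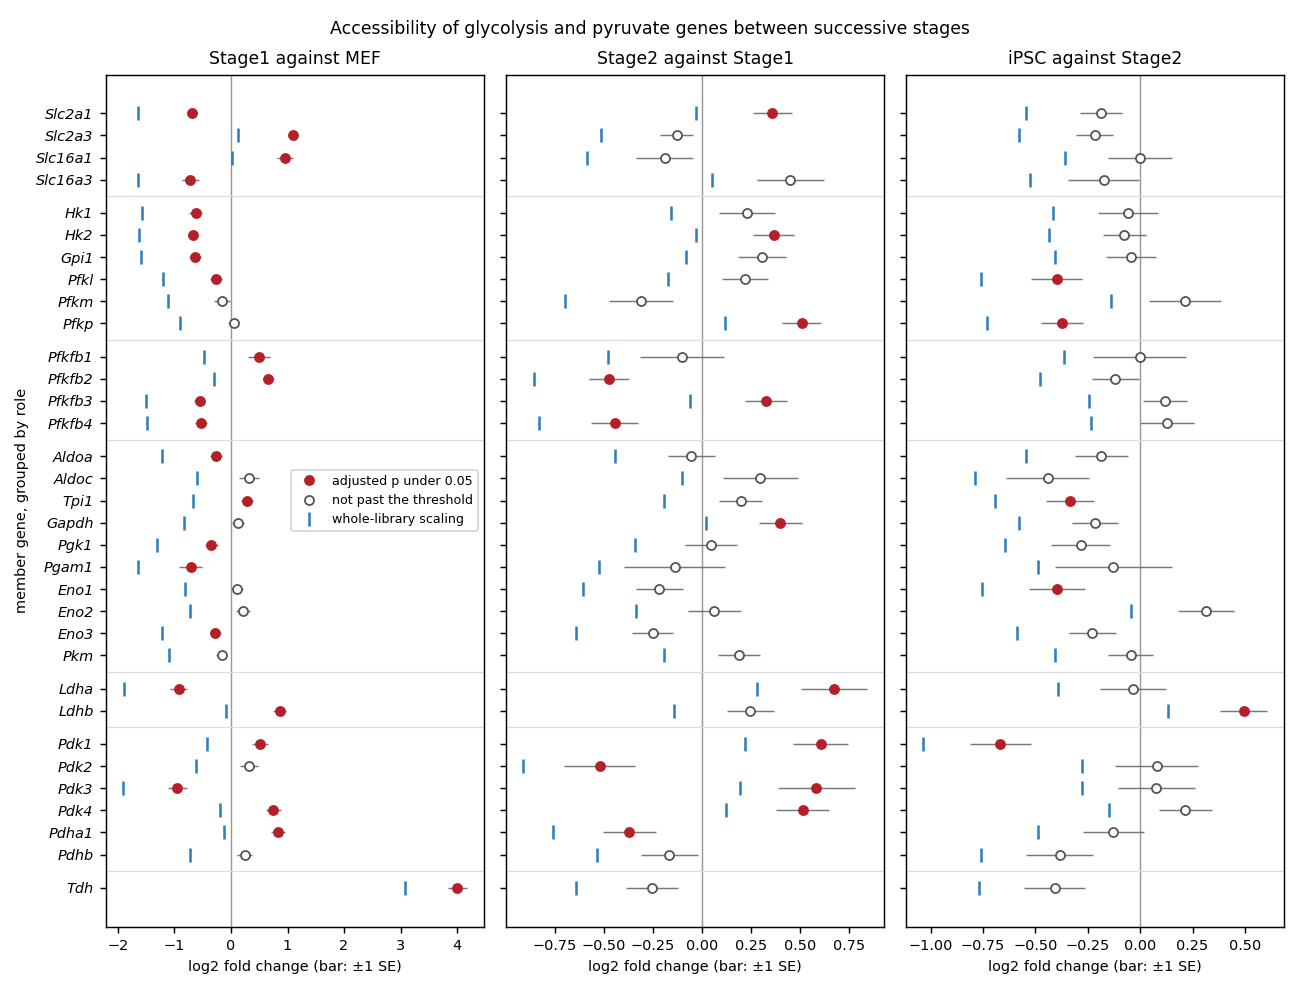
Log2 fold change of each of the 33 members between successive stages, with bars of ±1 SE; filled points passed the adjusted p of 0.05 and blue ticks mark the value with whole-library scaling. Tdh at 4.00 stands apart in Stage1 against MEF, and 24, 13 and 6 points are filled in the 3 panels.

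Slc2a1 encodes GLUT1, the ubiquitous glucose transporter, and Slc2a3 encodes GLUT3, a transporter of high affinity found in neurons and early embryos. Slc2a1 stood at 208, 207 and 195 CPM in MEF, 130.5, 124 and 125 in Stage1, 159, 164 and 164 in Stage2, and 147, 153 and 126 in iPSC. The MEF libraries were the highest and the Stage1 libraries the lowest apart from 1 iPSC library. Slc2a1 was lower in Stage1 than in MEF by -0.69 ± 0.09 (adjusted p = 4.37e-10) and higher in Stage2 than in Stage1 by 0.36 ± 0.10 (adjusted p = 0.00715, -0.03 with whole-library scaling). Slc2a3 was read at 230.5, 180.2 and 179.7 CPM in MEF, 391, 446 and 432 in Stage1, 404, 374 and 381 in Stage2, and 337, 357 and 301 in iPSC. All MEF libraries lay below every other library, and the Stage1 and Stage2 libraries overlapped. The difference between Stage1 and MEF was 1.09 ± 0.08 (adjusted p = 2.83e-19), and between iPSC and MEF 0.75 ± 0.09 (adjusted p = 1.01e-11, -0.97 with whole-library scaling). The value with whole-library scaling for Stage1 was 0.12, which did not pass the threshold. The 2 regions nearest to the neighbouring genes Nanog and Foxj2 were counted for Slc2a3 as well.

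The separate fit per region showed where these differences lay. Region levels and region fold changes were scaled over 71069 tested regions and sit lower than gene values: the single region of Pgk1 gave -0.57 in the region fit and -0.35 as a gene for Stage1 against MEF. Regions beyond the one with the largest change of a member were picked after their values were seen. In an intron of Slc2a1, chr4:119125401-119126400 (mm10) had mean CPM of 54.4, 5.07, 11.6 and 10.3 in MEF, Stage1, Stage2 and iPSC, a difference of -3.45 for Stage1 and then 1.22 for Stage2. A region beyond the far end of the gene, chr4:119138051-119138700, went the other way, from 3.54 to 16.7 CPM (2.23). The Slc2a1 promoter region chr4:119108301-119109450 had mean CPM of 81.9, 65.3, 44.7 and 30.7, and it was called lower in Stage1 and again in Stage2, by -0.34 and -0.54. The regions of Slc2a1 called higher in Stage2 lay away from its promoter, and with the gene span alone the difference of the gene was -0.01. Slc2a3 had 13 regions called higher in Stage1 and 1 lower. The largest change was at chr6:122762451-122763000, with mean CPM of 0.476, 15.4, 26.1 and 9.77 and differences of 5.05 for Stage1 and -1.40 for iPSC against Stage2. The region that was lower, chr6:122758551-122759250, was only in the authors' MEF interval list and differed by -3.03.

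The monocarboxylate transporters carry lactate and pyruvate across the membrane. MCT1, encoded by Slc16a1, is widespread, and MCT4, encoded by Slc16a3, is the exporter of highly glycolytic cells. Slc16a1 stood at 28.9, 29.3 and 37.2 CPM in MEF, 55.7, 69.1 and 57.8 in Stage1, 52.7, 52.4 and 53.6 in Stage2, and 56.5, 54.9 and 46.3 in iPSC. Slc16a3 was read at 49.7, 55.4 and 57.9 CPM in MEF, 28.6, 38.1 and 32.5 in Stage1, 38.6, 43.5 and 53.6 in Stage2, and 37.4, 38.96 and 43.4 in iPSC. MEF libraries were the lowest of all for Slc16a1 and lay above those of Stage1 for Slc16a3, where they overlapped with Stage2. The differences were 0.95 ± 0.14 (adjusted p = 7.81e-09) for Slc16a1 and -0.72 ± 0.15 (adjusted p = 2.15e-05) for Slc16a3, and neither gene was called between later stages. The regions of Slc16a1 that were higher in Stage1 lay behind its promoter, at 1.28 and 2.01, while the promoter region itself gave 0.11 (-0.59 with whole-library scaling), not past the threshold. All 4 regions of Slc16a3 also lay near Csnk1d.

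**Figure D2:**
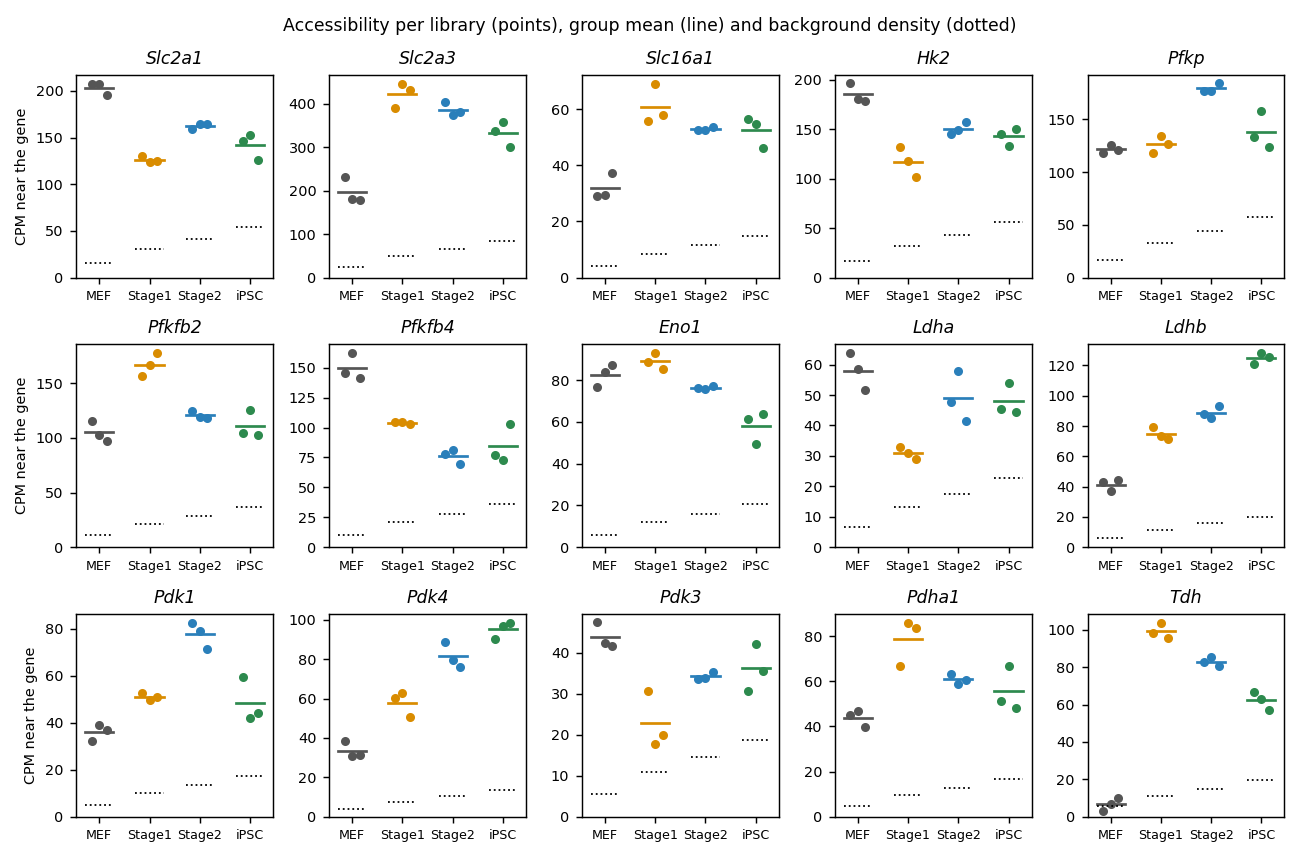
CPM near 15 members in each library (points), with the group mean as a line and the level that the read density outside regions would give as a dotted line. In CPM after TMM scaling, Ldhb and Pdk4 are highest in iPSC, Pdk1 and Pfkp in Stage2, Pfkfb2 and Tdh in Stage1, and Slc2a1, Hk2 and Pfkfb4 in MEF.

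Hexokinases trap glucose in the cell, glucose-6-phosphate isomerase (Gpi1) converts it to fructose 6-phosphate, and phosphofructokinase, with the liver, muscle and platelet isoforms Pfkl, Pfkm and Pfkp, commits it to glycolysis. Hk2 stood at 196, 180.2 and 179 CPM in MEF, 132, 118 and 102 in Stage1, 145, 149 and 157 in Stage2, and 145, 133 and 149.6 in iPSC. MEF libraries lay above all others, and Stage1 libraries lay below all others. Hk2 differed by -0.67 ± 0.09 (adjusted p = 3.74e-09) in Stage1 against MEF and by 0.37 ± 0.10 (adjusted p = 0.00955, -0.03 with whole-library scaling) in Stage2 against Stage1, where the call was lost without Stage1 replicate 3 or Stage2 replicate 3 (adjusted p up to 0.157). Hk1 ranged from 80.1 to 87.1 CPM in MEF, 51.3 to 57.9 in Stage1, 57.7 to 74.4 in Stage2 and 49.3 to 68.5 in iPSC, and Gpi1 from 110.2 to 113 CPM in MEF, 64.6 to 75.2 in Stage1, 87.5 to 89.9 in Stage2 and 75.3 to 98.99 in iPSC. Both were lower in Stage1 than in MEF, by -0.63 ± 0.12 (adjusted p = 7.5e-06) and -0.64 ± 0.11 (adjusted p = 3.08e-07), and were not called again between later stages.

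The larger of the Hk2 differences was in the gene body, and the promoter was lower as well. The intronic region chr6:82756001-82756750 had mean CPM of 50.3, 2.16, 7.12 and 8.70, which is -4.60 in Stage1 against MEF and 1.76 in Stage2 against Stage1. The Hk2 promoter region chr6:82774151-82774900 had mean CPM of 62.4, 43.7, 37.9 and 34.8, differing by -0.51 in Stage1, which was called, and by -0.20 in Stage2, not past the threshold. Regions with the largest changes in Hk1 and Gpi1 were of the same kind, inside the gene and only in the MEF list, at chr10:62299751-62300750 (-3.21) and chr7:34213151-34213800 (-3.65). The latter was higher again in Stage2, by 1.98.

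Among the phosphofructokinases, Pfkp stood at 118, 126 and 121 CPM in MEF, 118, 134 and 127 in Stage1, 177, 177 and 184 in Stage2, and 133, 157 and 124 in iPSC. The Stage2 libraries were above every other library, and MEF and Stage1 overlapped. Pfkp differed by 0.51 ± 0.10 (adjusted p = 0.000132) in Stage2 against Stage1 and by -0.37 ± 0.10 (adjusted p = 0.0119) in iPSC against Stage2, where the call was lost without iPSC replicate 1 or 3 (adjusted p up to 0.0846). Pfkl was read at 99.2, 99.9 and 95.8 CPM in MEF, 85.04, 82.3 and 80.03 in Stage1, 92.9, 92.9 and 103 in Stage2, and 79.2, 64.4 and 74.3 in iPSC. Its iPSC libraries lay below those of the 3 other groups. Pfkl was lower in Stage1 than in MEF by -0.26 ± 0.10 (adjusted p = 0.0265), where the call was lost without MEF replicate 1 or 2 or Stage1 replicate 2 or 3 (adjusted p up to 0.104), and lower in iPSC than in Stage2 by -0.40 ± 0.12 (adjusted p = 0.0273), where the call was lost without Stage2 replicate 1 or 2 or 3 or iPSC replicate 2 or 3 (adjusted p up to 0.175). Pfkm ranged from 47.7 to 56.4 CPM in MEF, 36.7 to 55.4 in Stage1, 33.7 to 40.5 in Stage2 and 41.1 to 48.2 in iPSC and was called in none of the 4 edgeR comparisons, nor by DESeq2, and its unadjusted edgeR p was under 0.05 in 0 of them. Pfkp held opposite changes within 1 gene in Stage1: chr13:6623951-6624650 gave -3.50 and chr13:6642351-6643000 gave 2.83.

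The bifunctional enzymes of the Pfkfb family make and break fructose 2,6-bisphosphate, a potent activator of phosphofructokinase. Pfkfb3 favours synthesis and is induced in dividing cells, Pfkfb4 is a testis and tumour form, Pfkfb2 is the heart form and Pfkfb1 the liver form. Their promoters are shown because the 2 annotated starts of Pfkfb3 and the start of Pfkfb2 differed in accessibility. All promoter windows printed here were chosen after the values were seen. Each runs from 250 bases before to 50 bases after a start, 5′ to 3′ on the strand of the gene, from RefSeq on GRCm38.p6, which is mm10. Capitals mark, on either strand, ACGTG (the core of the hypoxia response element), CACGTG (the E-box of Myc and USF, which contains ACGTG on both strands), GGGCGG (the GC box), CCAAT (the NF-Y box), TGANTCA (AP-1) and ATTTGCAT (the octamer of Oct factors).
Pfkfb2, chr1:130715772-130716071, minus strand: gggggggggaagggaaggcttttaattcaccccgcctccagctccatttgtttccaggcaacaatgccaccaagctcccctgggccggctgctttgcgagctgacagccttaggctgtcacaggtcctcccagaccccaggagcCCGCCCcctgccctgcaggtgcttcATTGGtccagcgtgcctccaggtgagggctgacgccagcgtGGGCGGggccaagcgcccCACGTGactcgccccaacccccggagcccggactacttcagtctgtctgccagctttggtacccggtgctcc
Pfkfb3 internal start, chr2:11502041-11502340, minus strand: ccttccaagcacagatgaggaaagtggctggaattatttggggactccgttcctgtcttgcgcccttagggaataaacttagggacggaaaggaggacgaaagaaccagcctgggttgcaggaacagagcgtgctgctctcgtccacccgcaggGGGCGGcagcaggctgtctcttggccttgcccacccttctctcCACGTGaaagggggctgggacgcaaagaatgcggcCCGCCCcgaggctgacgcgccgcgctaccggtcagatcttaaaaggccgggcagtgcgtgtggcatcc
Pfkfb3 upstream start, chr2:11553880-11554179, minus strand: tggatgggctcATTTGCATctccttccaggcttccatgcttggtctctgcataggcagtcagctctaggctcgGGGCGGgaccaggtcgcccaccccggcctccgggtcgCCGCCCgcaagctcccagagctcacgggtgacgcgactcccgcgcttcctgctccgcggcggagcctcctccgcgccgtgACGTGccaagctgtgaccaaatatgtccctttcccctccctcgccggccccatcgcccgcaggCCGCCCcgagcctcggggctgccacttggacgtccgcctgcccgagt

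RefSeq windows were found for 31 of the 33 members, 50 windows in all. Slc2a3 and Tdh are named only. ACGTG was in 44.0% of the member windows and in 20.9% of the 21262 windows of all genes. The E-box was in 6 of the 50 member windows and in 7.84% of all, the GC box in 25 and 46.2%, CCAAT in 20 and 38.2%, the octamer in 2 and 1.66%, and AP-1 in 1 and 6.99%. The median GC content was 60.5% in member windows and 56.3% in all windows. These are counts of letters, and windows of 1 gene can overlap.

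Pfkfb3 stood at 162, 149 and 151 CPM in MEF, 103, 98.3 and 114 in Stage1, 128, 137 and 132 in Stage2, and 161, 125 and 146 in iPSC. Stage1 libraries were the lowest, and the other groups lay higher, with iPSC overlapping both Stage2 and MEF. Pfkfb3 was lower in Stage1 than in MEF by -0.55 ± 0.10 (adjusted p = 1.15e-06) and higher in Stage2 than in Stage1 by 0.33 ± 0.11 (adjusted p = 0.0267, -0.06 with whole-library scaling), where the call was lost without Stage1 replicate 1 or 2 or Stage2 replicate 2 or 3 (adjusted p up to 0.154). The region at the internal start printed above, chr2:11501101-11502400, had mean CPM of 70.5, 63.9, 69.9 and 60.8 and differed by -0.15 between Stage1 and MEF, not past the threshold. The region at the upstream start, chr2:11553401-11554300, was in the MEF list alone, had mean CPM of 43.7, 9.63, 18.6 and 19.01, and differed by -2.08. Its window holds the octamer, 1 ACGTG and 3 GC boxes, and the internal window 1 E-box with its 2 ACGTG and 2 GC boxes.

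Pfkfb2 was read at 115, 103 and 96.9 CPM in MEF, 157, 166 and 178 in Stage1, 124, 119 and 118 in Stage2, and 105, 126 and 102 in iPSC. Stage1 libraries lay above every other library. Pfkfb2 differed by 0.66 ± 0.09 (adjusted p = 3.96e-09, -0.30 with whole-library scaling) in Stage1 against MEF and by -0.47 ± 0.10 (adjusted p = 0.000517) in Stage2 against Stage1. The region over the printed window, chr1:130715501-130716300, had mean CPM of 27.8, 80.8, 54.5 and 48.02, with 1.54 for Stage1 and -0.56 for Stage2. It also lies near Yod1. The next region at an annotated start, chr1:130716751-130717800, overlapped the promoter window of another gene and none of Pfkfb2. It moved the other way in Stage1, by -0.91. The largest change was upstream at chr1:130737451-130738100, which also lies near AA986860, with mean CPM of 1.93, 34.2, 19.2 and 8.26 and differences of 4.10, -0.83 and -1.19 in the 3 successive comparisons.

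Pfkfb4 stood at 146, 162 and 141 CPM in MEF, 105, 104 and 103 in Stage1, 77.7, 81.6 and 69.2 in Stage2, and 76.99, 73.1 and 103 in iPSC. MEF libraries were highest, Stage1 libraries came next, and Stage2 and iPSC overlapped, with 1 iPSC library near the level of Stage1. Pfkfb4 was lower in Stage1 than in MEF by -0.53 ± 0.10 (adjusted p = 4.01e-06) and lower again in Stage2 than in Stage1 by -0.44 ± 0.12 (adjusted p = 0.00585). In Stage1 the largest difference was at chr9:108977751-108978500, which also lies near Col7a1 and Ucn2, with mean CPM of 54.9, 4.01, 4.46 and 9.89 (-3.65). Its 1 region with no other gene nearby, chr9:109000601-109001150, gave 0.41 (-0.27 with whole-library scaling), not past the threshold. With the gene span alone, Pfkfb4 as a gene differed by 0.21 in Stage1, also not past it. Its promoter region chr9:108991301-108992200 gave -0.11 in Stage1, not past the threshold, and -0.89 in Stage2. Pfkfb1, on chromosome X, has a single region, shared with Apex2, and ranged from 15.1 to 21.2 CPM in MEF, 22.7 to 30.7 in Stage1, 16.97 to 28.6 in Stage2 and 21.2 to 28.6 in iPSC. Pfkfb1 was higher in Stage1 by 0.49 ± 0.19 (adjusted p = 0.0213, -0.47 with whole-library scaling), where the call was lost without MEF replicate 3 or Stage1 replicate 3 (adjusted p up to 0.239).

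**Figure D3:**
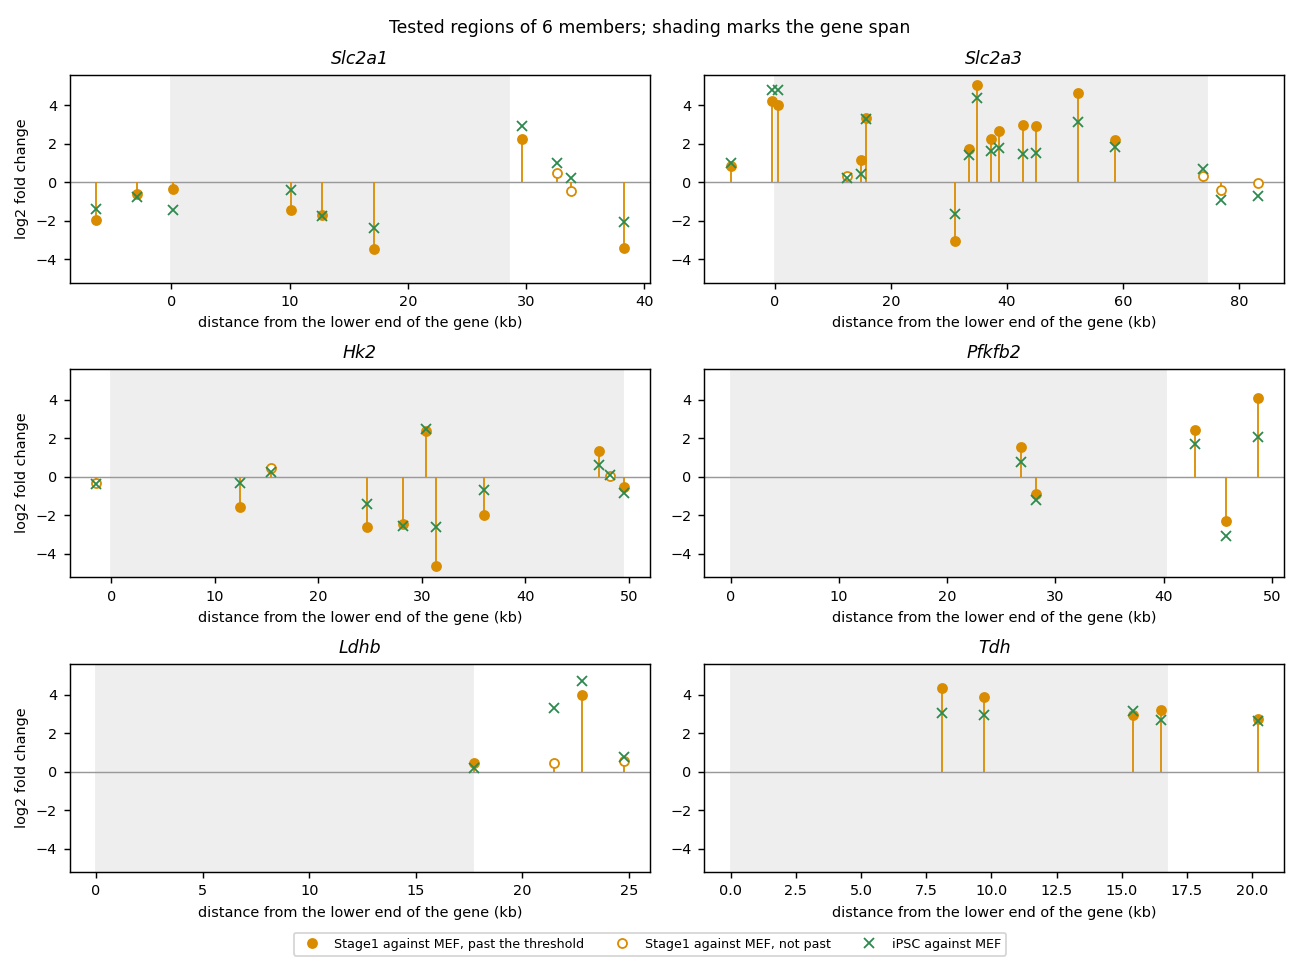
Log2 fold change of each tested region of 6 members against its distance from the lower end of the gene in kb; shading marks the gene, orange points are Stage1 against MEF (open if not past the threshold) and green crosses iPSC against MEF. Hk2, Slc2a1 and Pfkfb2 hold regions in both directions, while the 5 regions of Tdh lie from 2.71 to 4.35 in Stage1 against MEF.

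In the lower part of glycolysis, aldolase splits the hexose, Tpi1 interconverts the trioses, Gapdh makes NADH, Pgk1 and Pkm make ATP, and Pgam1 and the enolases rearrange the products between them. The promoters of Eno1 and Pgk1 are shown because the accessible region at each start was called lower together with its gene.
Eno1, chr4:150236947-150237246, plus strand: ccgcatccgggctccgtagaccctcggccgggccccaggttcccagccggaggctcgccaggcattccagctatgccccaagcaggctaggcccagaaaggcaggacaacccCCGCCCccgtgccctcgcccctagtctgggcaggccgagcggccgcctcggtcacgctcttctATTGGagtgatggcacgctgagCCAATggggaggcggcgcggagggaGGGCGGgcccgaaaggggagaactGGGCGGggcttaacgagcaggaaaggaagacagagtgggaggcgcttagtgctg
Pgk1, chrX:106186850-106187149, plus strand: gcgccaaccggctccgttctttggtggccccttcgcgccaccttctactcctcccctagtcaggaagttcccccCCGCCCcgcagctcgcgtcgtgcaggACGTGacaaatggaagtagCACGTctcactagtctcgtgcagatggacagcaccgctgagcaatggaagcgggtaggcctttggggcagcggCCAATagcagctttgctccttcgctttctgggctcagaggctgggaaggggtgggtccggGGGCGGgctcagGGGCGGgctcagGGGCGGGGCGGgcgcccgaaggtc

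Eno1 stood at 76.6, 83.7 and 87.4 CPM in MEF, 88.7, 92.95 and 85.4 in Stage1, 76.1, 75.6 and 77.4 in Stage2, and 61.6, 49.3 and 63.7 in iPSC. MEF and Stage1 overlapped, and iPSC libraries were the lowest. Eno1 differed by -0.40 ± 0.13 (adjusted p = 0.0462) in iPSC against Stage2, where the call was lost without Stage1 replicate 3 or Stage2 replicate 1 or 2 or 3 or iPSC replicate 1 or 2 or 3 (adjusted p up to 0.276), and by -0.50 ± 0.12 (adjusted p = 0.000221) in iPSC against MEF. The region over the printed window, chr4:150236551-150237450, had mean CPM of 79.5, 57.4, 39.9 and 23.004 and was called lower at each step, by -0.46, -0.53 and -0.79. The window holds 3 GC boxes and 2 CCAAT boxes. Pgk1, on chromosome X, has this 1 promoter region and ranged from 73.01 to 91.7 CPM in MEF, 61.1 to 71.1 in Stage1, 64.3 to 70.7 in Stage2 and 47.3 to 60.9 in iPSC. It was lower in Stage1 than in MEF by -0.35 ± 0.12 (adjusted p = 0.00627), where the call was lost without MEF replicate 2 or Stage1 replicate 2 (adjusted p up to 0.0658), and lower in iPSC than in MEF by -0.59 ± 0.12 (adjusted p = 2.99e-05). Its window holds 5 GC boxes, 2 ACGTG and 1 CCAAT box. Per kilobase of region, Pgk1 had the highest level of the members in each group, 97.9 CPM per kb in MEF and 65.2 in iPSC. The next was Pdhb in MEF at 38.3 and Pdk4 in iPSC at 51.5.

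Gapdh stood at 86.3, 83.9 and 91.3 CPM in MEF, 92.4, 87.6 and 101 in Stage1, 129, 120.3 and 124 in Stage2, and 116, 101 and 104 in iPSC. Stage2 libraries were above all others, and MEF and Stage1 overlapped. Gapdh was higher in Stage2 than in Stage1 by 0.40 ± 0.11 (adjusted p = 0.00612), where the call was lost without Stage1 replicate 2 (adjusted p up to 0.0618), and higher in iPSC than in MEF by 0.31 ± 0.10 (adjusted p = 0.00783, -1.39 with whole-library scaling), where the call was lost without iPSC replicate 1 (adjusted p up to 0.0881). With the read density outside the regions subtracted, the difference between iPSC and MEF was 0.053, where the member median was -0.61. The Gapdh promoter region chr6:125165351-125166050 gave -0.51 in Stage2, not past the threshold. The regions called higher in Stage2 also lie near Ncapd2, at chr6:125175351-125175800 with mean CPM of 0.728, 1.78, 12.9 and 11.2 (2.83) and at chr6:125172351-125172850 (1.09).

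Tpi1 was read at 87.8, 82.4 and 80.03 CPM in MEF, 108, 104 and 96.3 in Stage1, 114, 119.7 and 119 in Stage2, and 85.1, 93.02 and 102 in iPSC. MEF libraries lay below Stage1, and Stage2 libraries were the highest. Tpi1 was higher in Stage1 than in MEF by 0.29 ± 0.10 (adjusted p = 0.0114, -0.66 with whole-library scaling) and lower in iPSC than in Stage2 by -0.34 ± 0.11 (adjusted p = 0.0454), where the call was lost without Stage2 replicate 1 or 2 or 3 or iPSC replicate 1 or 2 (adjusted p up to 0.209). All 6 of its regions also lay near Spsb2 or Usp5, and the one called higher in Stage1 was chr6:124802301-124802900, near Spsb2 (2.84).

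Aldoa stood at 96.01, 97.99 and 96.5 CPM in MEF, 78.4, 77.02 and 84.8 in Stage1, 76.1, 82.8 and 73.3 in Stage2, and 68.2, 63.6 and 73.3 in iPSC. Aldoc, the brain isoform, was read at 20.1, 23.8 and 25.3 CPM in MEF, 32.3, 27.4 and 25.9 in Stage1, 28.8, 35.7 and 41.4 in Stage2, and 22.7, 25.4 and 29.9 in iPSC. MEF libraries were the highest of all for Aldoa and did not overlap with Stage1 for either gene. Aldoa was lower in Stage1 than in MEF by -0.27 ± 0.11 (adjusted p = 0.0219), where the call was lost without Stage1 replicate 1 or 2 (adjusted p up to 0.129), and lower in iPSC than in MEF by -0.51 ± 0.11 (adjusted p = 6.56e-05). Aldoc was called in none of the 4 comparisons, nor by DESeq2, and its unadjusted edgeR p was under 0.05 in 1 of them. Eno3, the muscle enolase, was read at 176, 187 and 181 CPM in MEF, 135, 173 and 145 in Stage1, 126, 139 and 112 in Stage2, and 103, 112 and 108 in iPSC, with MEF above the other groups. It was lower in Stage1 by -0.27 ± 0.09 (adjusted p = 0.0071), where the call was lost without Stage1 replicate 1 (adjusted p up to 0.0912), and all 7 of its regions lay near other genes as well. Eno2, the neuronal enolase, ranged from 49.5 to 57.2 CPM in MEF, 57.9 to 74.4 in Stage1, 60.7 to 71.96 in Stage2 and 78.5 to 84.9 in iPSC and was higher in iPSC than in MEF by 0.60 ± 0.12 (adjusted p = 1.37e-05, -1.11 with whole-library scaling). Pgam1 ranged from 23.9 to 31.2 CPM in MEF, 13.9 to 18.7 in Stage1, 11.5 to 16.7 in Stage2 and 8.68 to 16.1 in iPSC in its single promoter region and was lower in Stage1 by -0.71 ± 0.21 (adjusted p = 0.00194) and in iPSC against MEF by -0.98 ± 0.22 (adjusted p = 0.000112).

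Pkm, pyruvate kinase, ranged from 109.9 to 125 CPM in MEF, 100.04 to 115 in Stage1, 118 to 123 in Stage2 and 107 to 132 in iPSC. It was called in none of the 4 comparisons, nor by DESeq2, with an unadjusted edgeR p under 0.05 in 0 of them, although single regions were called. The promoter region chr9:59655801-59656750 was lower in Stage1 by -0.75, and chr9:59679551-59680450, next to the far end of the gene and near Gramd2, was higher by 1.23. The files do not resolve the PKM1 and PKM2 splice forms.

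Lactate dehydrogenase A favours the reduction of pyruvate to lactate and is a known target of hypoxia and Myc signalling, while lactate dehydrogenase B favours the reverse reaction. The 2 promoters are shown because accessibility at them differed in opposite directions between MEF and Stage1.
Ldha, chr7:46845554-46845853, plus strand: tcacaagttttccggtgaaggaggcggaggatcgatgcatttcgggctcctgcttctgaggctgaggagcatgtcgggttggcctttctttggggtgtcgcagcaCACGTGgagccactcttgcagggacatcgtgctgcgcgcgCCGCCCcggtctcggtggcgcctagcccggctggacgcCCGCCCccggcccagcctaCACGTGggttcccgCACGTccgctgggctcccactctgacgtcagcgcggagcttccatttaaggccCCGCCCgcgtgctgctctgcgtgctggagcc
Ldhb, chr6:142507908-142508207, minus strand: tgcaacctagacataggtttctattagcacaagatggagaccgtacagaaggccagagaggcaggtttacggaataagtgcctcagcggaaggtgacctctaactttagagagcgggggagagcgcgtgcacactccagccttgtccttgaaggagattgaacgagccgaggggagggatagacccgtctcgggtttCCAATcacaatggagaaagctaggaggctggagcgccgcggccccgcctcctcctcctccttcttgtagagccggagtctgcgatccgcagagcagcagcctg

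Ldha stood at 63.9, 58.4 and 51.6 CPM in MEF, 32.99, 30.98 and 28.9 in Stage1, 47.8, 57.8 and 41.4 in Stage2, and 45.5, 54.1 and 44.4 in iPSC. Stage1 libraries lay below every other library, and Stage2 and iPSC overlapped. Ldha was lower in Stage1 than in MEF by -0.93 ± 0.15 (adjusted p = 1.02e-07) and higher in Stage2 than in Stage1 by 0.67 ± 0.17 (adjusted p = 0.00283), where the call was lost without Stage2 replicate 2 (adjusted p up to 0.0505). The region over the printed Ldha window, chr7:46845301-46846400, had mean CPM of 47.4, 16.7, 20.8 and 17.99, was lower in Stage1 by -1.51, and differed by 0.31 in Stage2, not past the threshold. The region of Ldha called higher in Stage2 was chr7:46855801-46856300, between Ldha and the testis isoform gene Ldhc, with mean CPM of 2.33, 2.02, 13.3 and 9.85 (2.66). The Ldha window holds 5 ACGTG, 4 of them in 2 E-boxes, and 3 GC boxes, and the Ldhb window holds 1 CCAAT box and none of the other letters.

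Ldhb was read at 42.8, 37.1 and 44.2 CPM in MEF, 79.2, 73.5 and 71.6 in Stage1, 88.1, 85.2 and 92.999 in Stage2, and 121, 128 and 125 in iPSC. The groups did not overlap and their order was MEF, Stage1, Stage2 and iPSC. Ldhb was higher in Stage1 than in MEF by 0.86 ± 0.12 (adjusted p = 2.19e-09, -0.09 with whole-library scaling), and in iPSC by 0.49 ± 0.11 (adjusted p = 0.00292) over Stage2 and 1.60 ± 0.11 (adjusted p = 2.22e-21, -0.10 with whole-library scaling) over MEF. It was the only member called higher in iPSC than in Stage2. Its promoter region chr6:142507601-142508350 had mean CPM of 44.4, 60.4, 50.5 and 50.1, with 0.43 (-0.29 with whole-library scaling) in Stage1. Larger differences lay upstream of the start. At chr6:142511351-142512100 the mean CPM was 4.74, 6.57, 25.03 and 47.4, with 1.96 for Stage2 and 0.92 for iPSC, and at chr6:142512751-142513350 it was 0.899, 12.1, 15.3 and 20.1, with 3.97 for Stage1.

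Pyruvate dehydrogenase, with the subunits Pdha1 and Pdhb, turns pyruvate into acetyl-CoA, and the kinases Pdk1 to Pdk4 switch it off by phosphorylation. Pdk1 is a hypoxia target, Pdk4 responds to fasting and fatty acids, and Pdk2 and Pdk3 differ in tissue and in their sensitivity to metabolites. Pdk1 stood at 32.1, 39.2 and 36.9 CPM in MEF, 52.8, 49.6 and 51.1 in Stage1, 82.6, 79.2 and 71.3 in Stage2, and 59.4, 42.1 and 44.4 in iPSC. Stage2 libraries lay above all others, and Stage1 libraries overlapped with iPSC. Pdk1 was higher in Stage1 than in MEF by 0.51 ± 0.14 (adjusted p = 0.000984, -0.42 with whole-library scaling), higher in Stage2 than in Stage1 by 0.61 ± 0.14 (adjusted p = 0.0012) and lower in iPSC than in Stage2 by -0.67 ± 0.15 (adjusted p = 0.00178). For iPSC against MEF, at 0.45 ± 0.15 (adjusted p = 0.00525, -1.23 with whole-library scaling), the call was lost without iPSC replicate 1 (adjusted p up to 0.186). With the gene span alone this difference was -0.25, not past the threshold. With the read density outside the regions subtracted, it was 0.016, where the member median was -0.61. The regions called higher were 2 that also lie near Itga6, at chr2:71866501-71867050 with 4.02 in Stage1, and at chr2:71867401-71867900 with 2.07 in Stage1 and 1.39 in Stage2. The Pdk1 promoter region chr2:71872651-71873600 had mean CPM of 44.1, 38.9, 49.2 and 27.01 and was lower in iPSC than in Stage2 by -0.85.

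Pdk4 was read at 38.6, 30.8 and 31.2 CPM in MEF, 60.1, 62.9 and 50.5 in Stage1, 88.6, 79.8 and 76.03 in Stage2, and 90.2, 96.99 and 98.4 in iPSC. Its groups did not overlap, and from low to high their order was MEF, Stage1, Stage2 and iPSC. Pdk4 differed by 0.75 ± 0.13 (adjusted p = 1.39e-06, -0.20 with whole-library scaling) in Stage1 against MEF, by 0.51 ± 0.13 (adjusted p = 0.00418) in Stage2 against Stage1, where the call was lost without Stage1 replicate 3 (adjusted p up to 0.0746), and by 1.48 ± 0.12 (adjusted p = 2.3e-17, -0.23 with whole-library scaling) in iPSC against MEF. A single region just beyond the far end of the gene, chr6:5482051-5482900, had mean CPM of 1.28, 23.6, 36.7 and 34.5, with 4.08 in Stage1 and 0.65 in Stage2. The Pdk4 promoter region gave -0.01 in Stage1, not past the threshold.

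Pdk3, on chromosome X, stood at 47.5, 42.4 and 41.8 CPM in MEF, 30.8, 17.7 and 19.9 in Stage1, 33.7, 33.9 and 35.3 in Stage2, and 30.8, 42.1 and 35.7 in iPSC. Stage1 libraries lay below those of MEF and Stage2, and the highest of them, 30.8, was level with the lowest iPSC library. Pdk3 was lower in Stage1 than in MEF by -0.95 ± 0.17 (adjusted p = 1.22e-06) and higher in Stage2 than in Stage1 by 0.58 ± 0.20 (adjusted p = 0.0314), where the call was lost without Stage1 replicate 2 or 3 or Stage2 replicate 1 or 2 or 3 (adjusted p up to 0.193). Both differences were also called at its promoter region chrX:93831551-93832600, by -0.57 and 0.69. Pdk2 was read at 30.4, 32.5 and 32.3 CPM in MEF, 46.2, 33.6 and 38.5 in Stage1, 25.5, 32.8 and 24.4 in Stage2, and 32.996, 31.01 and 22.2 in iPSC. Its Stage1 libraries lay above all others, and its 3 regions all lie near Itga3. Pdk2 was lower in Stage2 than in Stage1 by -0.52 ± 0.18 (adjusted p = 0.0392), where the call was lost without Stage1 replicate 1 or 3 or Stage2 replicate 1 or 3 (adjusted p up to 0.169).

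Pdha1, on chromosome X, stood at 45.2, 46.6 and 39.7 CPM in MEF, 66.7, 85.9 and 83.6 in Stage1, 63.1, 58.96 and 60.4 in Stage2, and 51.3, 66.8 and 48.2 in iPSC. Stage1 libraries were the highest, apart from 1 iPSC library that lay just above the lowest of them. Pdha1 was higher in Stage1 than in MEF by 0.83 ± 0.12 (adjusted p = 1.63e-08, -0.12 with whole-library scaling) and lower in Stage2 than in Stage1 by -0.37 ± 0.13 (adjusted p = 0.0476), where the call was lost without Stage1 replicate 2 or 3 or Stage2 replicate 1 or 2 or 3 or iPSC replicate 1 (adjusted p up to 0.21). For iPSC against MEF, at 0.33 ± 0.14 (adjusted p = 0.0296, -1.36 with whole-library scaling), the call was lost without MEF replicate 3 or iPSC replicate 2 (adjusted p up to 0.366). With the read density outside the regions subtracted, that difference was -0.0036, where the member median was -0.61. The regions that were higher in Stage1 are in introns, at chrX:160134001-160134550 (2.62) and chrX:160135851-160136550 (2.35), and the promoter region gave -0.05, not past the threshold. Chromosome X held 1.78%, 2.02%, 2.06% and 1.75% of the reads in regions in MEF, Stage1, Stage2 and iPSC, and its part in the values of Pgk1, Pdha1, Pdk3 and Pfkfb1 was not tested. Pdhb was read at 73.4, 58.8 and 63.2 CPM in MEF, 82.8, 69.1 and 79.4 in Stage1, 91.9, 53.001 and 60.4 in Stage2, and 52.8, 58.8 and 46.3 in iPSC, with all groups overlapping their neighbours. Pdhb was called in none of the 4 comparisons, nor by DESeq2, and its unadjusted edgeR p was under 0.05 in 2 of them.

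Tdh, mitochondrial threonine dehydrogenase, starts the breakdown of threonine to glycine and acetyl-CoA and is a marker of mouse pluripotent cells. It stood at 3.35, 6.85 and 10.2 CPM in MEF, 98.2, 104 and 95.7 in Stage1, 82.6, 85.2 and 80.8 in Stage2, and 66.7, 62.8 and 56.9 in iPSC. The MEF libraries lay around the 5.70 CPM that the read density outside regions would give, and Stage1, Stage2 and iPSC followed in falling order without overlap. Tdh was higher in Stage1 than in MEF by 4.00 ± 0.17 (adjusted p = 9.65e-33) and in iPSC than in MEF by 3.34 ± 0.19 (adjusted p = 2.04e-25), and remained higher with whole-library scaling, by 3.07 and 1.66. The later steps, at -0.25 ± 0.13 (adjusted p = 0.187) and -0.41 ± 0.15 (adjusted p = 0.0608), were not past the threshold. None of its 5 regions was in the MEF list, and all were higher in Stage1, from 2.71 at chr14:63512351-63512800, near Mtmr9, to 4.35 at chr14:63500001-63500900. The latter had mean CPM of 2.98, 59.1, 37.9 and 23.5 and was called lower in Stage2 than in Stage1, by -0.64.

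The ratio of 2 genes within a library does not depend on how libraries are scaled, so 10 pairs of isoforms or partners were compared as log2 ratios of reads (mean ± SD, n = 3). With 3 libraries against 3, the exact two-sided permutation test cannot go below p = 0.1, and over the 40 tests the smallest Benjamini-Hochberg adjusted value was 0.182. Groups did not overlap for 7 pairs between MEF and Stage1, 5 between Stage1 and Stage2, 2 between Stage2 and iPSC, and 8 between MEF and iPSC. Other pairs of genes were not compared, so the share without overlap among pairs in general is not known. Of all single genes, 61.0%, 15.0%, 8.96% and 61.3% were called without overlap in these comparisons. The Slc2a3/Slc2a1 ratio was -0.06 ± 0.18 in MEF, 1.74 ± 0.14 in Stage1, 1.25 ± 0.09 in Stage2 and 1.22 ± 0.02 in iPSC. The Ldha/Ldhb ratio was 0.48 ± 0.23 in MEF, -1.26 ± 0.03 in Stage1, -0.87 ± 0.30 in Stage2 and -1.38 ± 0.13 in iPSC. For these transporters and dehydrogenases MEF lay apart from the 3 other groups, and for Ldha/Ldhb the sign changed. The Slc16a1/Slc16a3 ratio also changed sign, with -0.78 ± 0.14 in MEF, 0.88 ± 0.07 in Stage1, 0.24 ± 0.23 in Stage2 and 0.39 ± 0.26 in iPSC. For Pfkfb3/Pfkfb4 the step came later, with 0.04 ± 0.14 in MEF, 0.01 ± 0.12 in Stage1, 0.80 ± 0.12 in Stage2 and 0.77 ± 0.28 in iPSC. The Pdk1/Pdk4 ratio was 0.11 ± 0.33 in MEF, -0.17 ± 0.18 in Stage1, -0.07 ± 0.05 in Stage2 and -0.98 ± 0.33 in iPSC, so that iPSC lay below the other groups. Pfkp/Pfkl was 0.31 ± 0.05 in MEF, 0.61 ± 0.12 in Stage1, 0.90 ± 0.05 in Stage2 and 0.92 ± 0.32 in iPSC, and Aldoa/Aldoc 2.07 ± 0.17 in MEF, 1.48 ± 0.21 in Stage1, 1.14 ± 0.29 in Stage2 and 1.39 ± 0.16 in iPSC. With the gene span alone as the window, the difference between Stage1 and MEF was -0.67 for Pfkfb3/Pfkfb4 and -1.78 for Aldoa/Aldoc, and that between Stage2 and Stage1 was 0.01 for Slc2a3/Slc2a1. Hk2/Hk1 varied least, with 1.13 ± 0.14 in MEF, 1.09 ± 0.16 in Stage1, 1.24 ± 0.22 in Stage2 and 1.21 ± 0.18 in iPSC, all groups overlapping. Eno1/Eno3 was -1.13 ± 0.08 in MEF, -0.75 ± 0.14 in Stage1, -0.71 ± 0.17 in Stage2 and -0.89 ± 0.25 in iPSC, and Pdha1/Pdhb -0.57 ± 0.20 in MEF, 0.03 ± 0.31 in Stage1, -0.13 ± 0.36 in Stage2 and 0.07 ± 0.11 in iPSC.

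**Figure D4:**
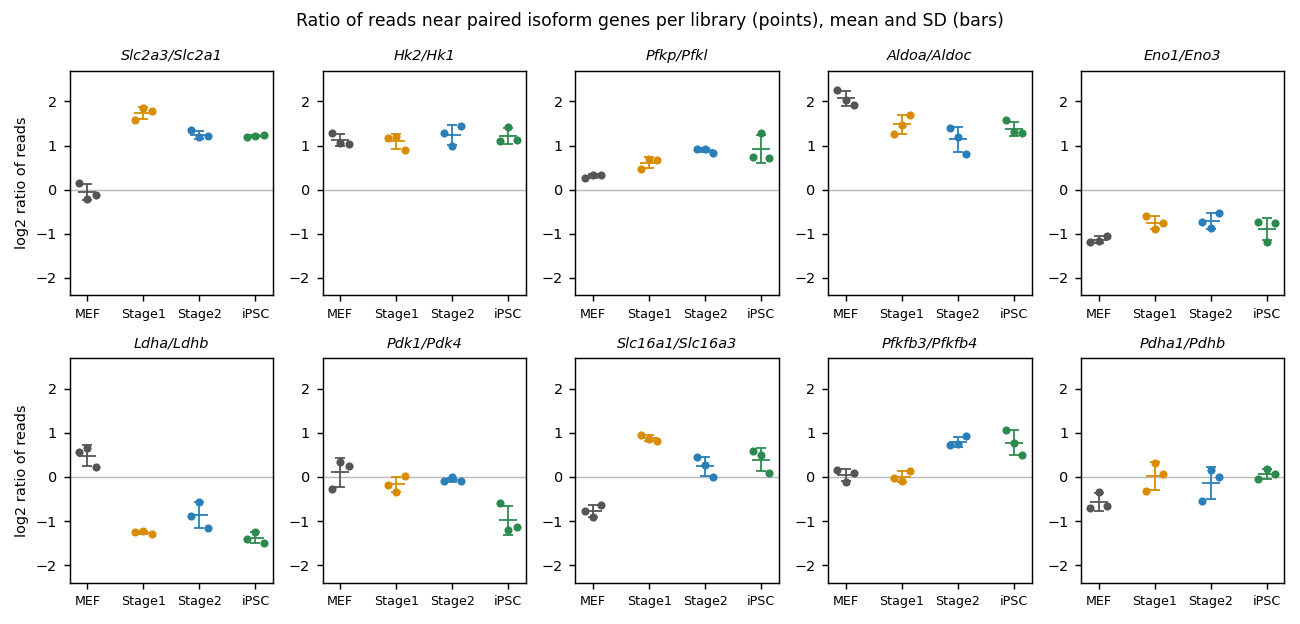
Log2 ratio of reads near the genes of 10 pairs in each library (points), with the mean and SD of each group of 3 as bars. MEF stands apart from the other groups for Slc2a3/Slc2a1, Ldha/Ldhb and Slc16a1/Slc16a3, and iPSC for Pdk1/Pdk4.

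Of the 183 member regions, 160 were tested. Between MEF and Stage1, 55 were higher and 59 lower, 71.3% of the tested ones, against 80.4% of all tested regions in either direction. That split was 36 higher and 82 lower with whole-library scaling, and 75 and 35 without the TMM factor. The 45 regions at an annotated start of any protein-coding gene, the member or a neighbour, and the 115 other tested regions were distributed differently. Slc2a3 and Tdh had no RefSeq window, so their own starts did not count as annotated here. At starts 6 were higher and 25 lower, a median of -0.39, while of all 10171 such regions 20.5% were higher and 33.9% lower, with a median of -0.18. Elsewhere 49 were higher and 34 lower, a median of 0.39, while of all other regions 43.3% were higher and 41.5% lower, with a median of 0.19. In iPSC against MEF, 58 member regions were higher and 66 lower, 77.5% against 82.1% of all, or 21 and 97 with whole-library scaling and 75 and 43 without the TMM factor. At starts 6 were higher and 30 lower, against 16.7% and 50.7%, with medians of -0.84 and -0.46. Elsewhere 52 were higher and 36 lower, against 42.8% and 41.7%, with medians of 0.45 and 0.15. With whole-library scaling the medians of member regions elsewhere were -0.33 in Stage1 and -0.79 in iPSC against MEF, above the -1.10 and -2.12 at starts. Over the 26 members that had both kinds, regions within 1 kb of a gene end held 37.6% ± 0.69, 37.7% ± 1.66, 39.3% ± 0.36 and 39.8% ± 0.50 (SD, n = 3) of the summed member reads in MEF, Stage1, Stage2 and iPSC, a difference of 2.13 percentage points between iPSC and MEF (exact two-sided permutation p = 0.1, the smallest possible) that was -0.32 when the distance was 500 bp. With only regions within 1 kb of a gene end, the difference took the other sign and passed the threshold for Ldha (2.48) and Pfkfb4 (0.92) in iPSC against MEF and for Slc2a3 (0.65) in Stage2 against Stage1. In MEF these regions held 2.84% of the reads of Ldha and 4.36% of those of Pfkfb4. They leave out the Ldha promoter region given above, which was lower. Of the differences called in the main fit, those of the other sign without passing were Slc2a1 (0.084), Tpi1 (-0.0089) and Pdk1 (-0.048) in Stage1 against MEF. The rest were Slc2a1 (-0.064) and Pfkfb4 (0.80) in Stage2 against Stage1, and Pdk1 (-0.29) and Pdha1 (-0.062) in iPSC against MEF. With only regions farther away the difference took the other sign and passed for Pdk2 (0.92) and Pdhb (1.81) in iPSC against MEF. Called differences that took the other sign without passing were Pdk3 in Stage2 (-0.45) and Eno1 in iPSC against MEF (0.13). In Stage2 against Stage1, 15 were higher and 11 lower (3 and 10 with whole-library scaling), 16.3% against 10.8%, and in iPSC against Stage2, 2 were higher (Eno2 and Ldhb) and 8 lower (0 and 1 with whole-library scaling), 6.25% against 1.85%. DESeq2 called 5 higher and 5 lower regions in the former comparison and 1 and 4 in the latter. The 15 higher regions in Stage2 became 4 to 9 without Stage1 replicate 2 or 3 or any 1 Stage2 library, and the 11 lower ones 6 or 7 without Stage1 replicate 3 or any 1 Stage2 library. Of the iPSC counts, the 8 lower regions became 1 to 3 without any 1 Stage2 or iPSC library, and the 2 higher ones 0 or 1 without any 1 library of Stage1, Stage2 or iPSC. Of the 30 members with at least 2 tested regions, 14 (46.7%) had regions called in both directions between MEF and Stage1, close to the 47.0% of 13797 genes with at least 2 tested regions. Between Stage1 and Stage2 there were 2 (Slc2a1 and Eno3), 6.67% against 2.17% of genes, between Stage2 and iPSC 0 against 0.0507%, and between MEF and iPSC 19, 63.3% against 51.4%. These members had a median of 4 tested regions and these genes a median of 3.

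**Figure D5:**
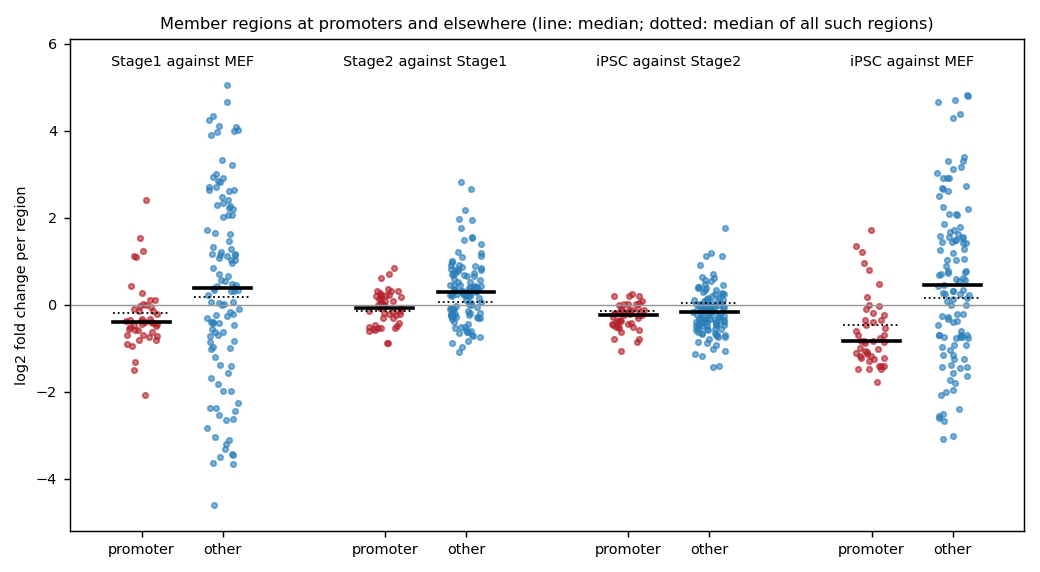
Log2 fold change of the tested member regions at annotated starts (red) and elsewhere (blue) in the 4 comparisons; solid lines are medians of member regions and dotted lines medians of all regions of the same class. Member regions at starts, which can be the start of a neighbouring gene, lie mostly below 0 against MEF, with medians of -0.39 and -0.84. Other regions spread from -4.60 to 5.05 between MEF and Stage1.

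The authors' interval lists per stage placed 56 of the 183 member regions, 30.6%, in all 4 lists, against 15.0% of the regions near any gene. The MEF list alone held 54, or 29.5%, against 51.9%. The Stage2 list alone held 14 (7.65% against 4.58%), the Stage1 and Stage2 lists together 12 (6.56% against 3.36%), and the 3 later lists without MEF 9 (4.92% against 5.52%). The lists depend on how many intervals were called in each group.

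Other genes of the pathway were counted from 7 lists. Over all lists, 28 genes were higher and 22 lower in Stage1 against MEF, or 3 and 51 with whole-library scaling. The counts were 5 and 8 in Stage2 against Stage1 (1 and 7 with whole-library scaling), 3 and 3 in iPSC against Stage2 (0 and 1) and 25 and 22 in iPSC against MEF (1 and 69). Of all genes, 32.4% were called higher and 32.7% lower in Stage1 against MEF. The shares were 8.53% and 7.32% in Stage2 against Stage1, 5.8% and 3.62% in iPSC against Stage2, and 32.8% and 32.2% in iPSC against MEF. The numbers tested are given per list below. Of 10 tested partners of pyruvate entry and the pyruvate dehydrogenase complex, 4 were higher and 1 lower in Stage1, among them Pdha2, the testis subunit, at 1.08 and the phosphatase Pdp2 at 0.83 (-0.13 with whole-library scaling). In Stage2 the calls were 2 lower, Pdp2 by -0.52 and the pyruvate carrier subunit Mpc2 by -0.48. Of 16 citric acid cycle genes, 6 were higher and 6 lower in Stage1, including Sdhc at 1.30 and Sucla2 at 1.07, and in Stage2 only Fh1 was called, at -0.62. Of 7 pentose phosphate genes, 2 were higher and 1 lower in Stage1, with Taldo1 at 0.59 (-0.35 with whole-library scaling) and Pgls at 0.52 (-0.42 with whole-library scaling), and in Stage2 Tkt, transketolase, was higher by 0.63. Of 5 genes of threonine and glycine breakdown, 3 were higher in Stage1 and the other 2 were not called, with Shmt2 at 0.78 (-0.16 with whole-library scaling) and Gcat, which acts after Tdh, at 0.61 (-0.33 with whole-library scaling). In Stage2 Shmt2 was higher by 0.41 and Gcsh lower by -0.55.

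Of 13 tested tissue-restricted glycolysis genes of 16 listed, 4 were higher and 4 lower in Stage1, with the liver glucose transporter Slc2a2 at -4.39 and the muscle mutase Pgam2 at -2.56. In Stage2 Ldhc was higher by 1.89, which shares the region with Ldha given above, and Eno4 lower by -0.77, 1 of 2 called lower. Of 5 tested gluconeogenesis genes of 6 listed, 1 was higher and 2 lower in Stage1, Pck1 at 1.23 and its mitochondrial form Pck2 at -0.47. Of 20 tested regulators of 21 listed, 8 were higher and 8 lower in Stage1. They included the oxygen sensor Egln1 at -2.59. In Stage2, 2 were higher and 2 lower, with Egln3, a relative of Egln1, at 1.13 and Mlxip at -0.57, and in iPSC against Stage2, 2 were higher and 1 lower, with Esrrg at 0.50 and Trp53 at -0.72. These values are log2 fold changes called by edgeR, and the shares of all genes called are given above.

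The labelled cell types were checked against their markers, as summed CPM over libraries. The 8 fibroblast markers (such as Col1a1 and Thy1) ranged from 699 to 716 in MEF, 334 to 349 in Stage1, 370.4 to 407 in Stage2 and 421 to 457 in iPSC. The read density outside regions would give 78.3, 154, 207 and 267 of these in the 4 groups, so it also rose after Stage1. In iPSC against MEF, 7 fibroblast markers were called lower and 1 higher. The 8 pluripotency markers (such as Nanog and Esrrb) ranged from 194 to 217, 797 to 853, 1031 to 1058 and 829 to 933, where that density would give 67.8, 134, 180 and 232. The 6 endothelial markers ranged from 264 to 273, 144 to 170.3, 184 to 193 and 237 to 254, where that density would give 43.6, 85.9, 116 and 149. The blood markers ranged from 155 to 162, 191 to 208, 203 to 223 and 170.1 to 175, and the skeletal muscle markers from 57.2 to 69.6, 69.1 to 72.2, 79.4 to 95.9 and 77.9 to 95.3, with no counted region at Adgre1 and Myod1. That density would give 25.5, 50.1, 67.4 and 86.9 for blood and 11.9, 23.5, 31.6 and 40.8 for skeletal muscle. The part of these cell types in the differences at the members was not tested.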

How the data were processed

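Chromatin accessibility was measured by ATAC-seq in 12 mouse libraries. The authors deposited, per library, whole read counts for 115000 regions, and interval lists for each of the 4 groups. The submitters' processing notes name the build mm10, HTSeq 0.5.4p3, DESeq2 1.12.4, Picard 2.6.0, Bowtie2 2.2.6 and SAMtools 0.1.19, with no order or role. The peak caller and filters are not given in the sources used here. Reads in no region and reads assigned ambiguously (0.0311% to 0.230% of a library) stayed out of the library sizes.

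Counts were summed for each protein-coding gene over regions that overlapped its RefSeq span on mm10 or lay within 10 kb of either end, which gave 18084 of 21883 genes a region. A region near several genes counted for each. Genes and regions were tested in 1 model of the 4 groups with edgeR 4.0.16 (R 4.3.3) on TMM-scaled counts, with the robust quasi-likelihood F test, after filterByExpr (minimum count 10, minimum total 15), and p-values were adjusted by Benjamini-Hochberg over the 17536 genes or 71069 regions tested, with a threshold of 0.05. The fit was tested on simulated data. Ratios between genes had 0.5 reads added and were compared by exact permutation tests (scipy 1.17.1, pandas 2.3.3, Python 3.11.15).

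All 33 members are named. Values of every library are given for members called between successive stages without overlap and by at least 1 on the log2 scale, for members called in Stage2 against Stage1 or in iPSC against Stage2, and for the single genes of the isoform pairs whose ratio moved. The ratios themselves are given as mean and SD, and Hk1 and the other members by range. The region named for a member is the called one with the largest difference, without overlap of the libraries. For other lists the genes named have the largest called differences. 1 such gene is not reported here. The members and lists were chosen with earlier results of these data known.

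The alternatives were DESeq2 1.42.0, whole-library scaling, no TMM factor, no filter, other windows, regions linked to 1 gene, thinning to 1034936 reads in regions, only the compared groups, the replicate number as a block, and each library left out. Sequences and gene spans come from RefSeq tables.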

Additional observations from a re-analysis of the deposited data

How the results depend on the processing

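Alternatives were run for each of the 33 members in the 4 comparisons. In all, 2650 values kept their side of the threshold, and called ones among them kept their sign. Of the others, 157 fell back over it and 98 newly passed it, all with the same sign, and 51 took the other sign. A sign change of a value called neither in the main fit nor in the alternative was not counted and is not listed. Given next are the counts, medians and signs that moved. Shares of all genes called were computed only for the main fit and for whole-library scaling, so the other counts stand without them. Without a filter on low counts all 132 values stayed on their side. With whole-library scaling, members called numbered 1 higher and 24 lower in Stage1 against MEF, 0 higher in Stage2 against Stage1, 0 higher and 0 lower in iPSC against Stage2 and 1 higher and 30 lower in iPSC against MEF. Member regions called numbered 36 higher in Stage1 against MEF, 3 higher in Stage2 against Stage1, 0 higher and 1 lower in iPSC against Stage2 and 21 higher in iPSC against MEF. Other pathway genes called numbered 3 higher and 51 lower in Stage1 against MEF, 1 higher in Stage2 against Stage1, 0 higher and 1 lower in iPSC against Stage2 and 1 higher and 69 lower in iPSC against MEF. Member medians were -0.89 in Stage1 against MEF, -0.19 in Stage2 against Stage1, -0.49 in iPSC against Stage2 and -1.81 in iPSC against MEF. Differences of the other sign were Pfkp -0.89, Aldoc -0.61, Tpi1 -0.66, Gapdh -0.83, Eno1 -0.82, Eno2 -0.73, Ldhb -0.088, Pdk1 -0.42, Pdk2 -0.62, Pdk4 -0.20, Pdha1 -0.12, Pdhb -0.72, Pfkfb1 -0.47 and Pfkfb2 -0.30 in Stage1 against MEF, and Slc2a1 -0.030, Hk2 -0.028 and Pfkfb3 -0.058 in Stage2 against Stage1, and Slc2a3 -0.97, Pfkp -1.50, Aldoc -1.50, Tpi1 -1.55, Gapdh -1.39, Eno2 -1.11, Ldhb -0.097, Pdk1 -1.23, Pdk4 -0.23, Pdha1 -1.36, Slc16a1 -0.92, Pfkfb1 -1.31 and Pfkfb2 -1.64 in iPSC against MEF.

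Without the TMM factor, members called numbered 17 higher in Stage1 against MEF and 8 lower in iPSC against Stage2. Member regions called numbered 35 lower in Stage1 against MEF and 43 lower in iPSC against MEF. Member medians were 0.23 in Stage1 against MEF, 0.14 in Stage2 against Stage1, -0.20 in iPSC against Stage2 and -0.057 in iPSC against MEF. With the gene span alone as the window, members called numbered 4 higher and 1 lower in Stage2 against Stage1 and 0 higher in iPSC against Stage2. Member medians were -0.093 in Stage1 against MEF, 0.062 in Stage2 against Stage1 and -0.23 in iPSC against MEF. Differences of the other sign were Pfkfb4 0.21 in Stage1 against MEF, and Slc2a1 -0.0097 in Stage2 against Stage1, and Pdk1 -0.25 in iPSC against MEF. Differences in log2 ratios became Slc2a3/Slc2a1 2.69, Hk2/Hk1 0.21, Aldoa/Aldoc -1.78, Pfkfb3/Pfkfb4 -0.67 and Pdha1/Pdhb 1.00 in Stage1 against MEF, and Slc2a3/Slc2a1 0.015, Pfkp/Pfkl 0.43 and Eno1/Eno3 -0.57 in Stage2 against Stage1, and Aldoa/Aldoc -0.33 and Ldha/Ldhb -0.16 in iPSC against Stage2, and Slc2a3/Slc2a1 2.66, Hk2/Hk1 0.47, Aldoa/Aldoc -2.42, Eno1/Eno3 -0.48, Ldha/Ldhb -1.55, Pfkfb3/Pfkfb4 0.35 and Pdha1/Pdhb 0.92 in iPSC against MEF. With regions within 1 kb of a gene end alone, members called numbered 7 lower in Stage1 against MEF, 0 lower in Stage2 against Stage1 and 0 higher and 1 lower in iPSC against Stage2. Member medians were -0.069 in Stage1 against MEF, 0.21 in Stage2 against Stage1 and 0.013 in iPSC against MEF. Differences of the other sign were Slc2a1 0.084, Tpi1 -0.0089 and Pdk1 -0.048 in Stage1 against MEF, and Slc2a1 -0.064, Slc2a3 0.65 and Pfkfb4 0.80 in Stage2 against Stage1, and Ldha 2.48, Pdk1 -0.29, Pdha1 -0.062 and Pfkfb4 0.92 in iPSC against MEF. With regions farther than 1 kb from a gene end alone, the member median was -0.015 in Stage1 against MEF, -0.017 in Stage2 against Stage1 and -0.22 in iPSC against Stage2. Differences of the other sign were Pdk3 -0.45 in Stage2 against Stage1, and Eno1 0.13, Pdk2 0.92 and Pdhb 1.81 in iPSC against MEF. With regions linked to 1 gene alone, members called numbered 9 lower in Stage1 against MEF and 2 lower in Stage2 against Stage1. Member medians were 0.062 in Stage2 against Stage1, -0.21 in iPSC against Stage2 and -0.27 in iPSC against MEF. Differences of the other sign were Pfkfb4 0.68 in Stage1 against MEF, and Pdk1 -0.33, Pdhb 1.96 and Pfkfb4 0.62 in iPSC against MEF. With libraries thinned to equal reads in regions, members called numbered 9 lower in Stage1 against MEF. Member regions called numbered 28 lower in Stage1 against MEF and 43 lower in iPSC against MEF. Member medians were 0.11 in Stage2 against Stage1 and -0.16 in iPSC against Stage2. With DESeq2, members called numbered 2 lower in Stage2 against Stage1 and 3 lower in iPSC against Stage2. Member regions called numbered 5 higher and 5 lower in Stage2 against Stage1 and 1 higher and 4 lower in iPSC against Stage2. Other pathway genes called numbered 1 higher in iPSC against Stage2. Member medians were -0.15 in iPSC against Stage2. With only the compared groups in the model, members called numbered 8 lower in iPSC against Stage2. Member medians were 0.16 in Stage2 against Stage1.

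Leaving out 1 library at a time gave, for members, 9 to 12 higher and 11 to 14 lower in Stage1 against MEF, 6 to 9 higher and 2 to 5 lower in Stage2 against Stage1, 1 to 1 higher and 2 to 7 lower in iPSC against Stage2 and 7 to 10 higher and 12 to 15 lower in iPSC against MEF, for member regions, 53 to 61 higher and 43 to 55 lower in Stage1 against MEF, 4 to 19 higher and 6 to 12 lower in Stage2 against Stage1, 0 to 2 higher and 1 to 9 lower in iPSC against Stage2 and 55 to 65 higher and 55 to 63 lower in iPSC against MEF, for other pathway genes, 23 to 30 higher and 17 to 24 lower in Stage1 against MEF, 4 to 6 higher and 5 to 9 lower in Stage2 against Stage1, 1 to 3 higher and 2 to 7 lower in iPSC against Stage2 and 21 to 24 higher and 20 to 24 lower in iPSC against MEF. The medians of the members ranged over 0.042 to 0.11 in Stage1 against MEF, 0.12 to 0.19 in Stage2 against Stage1, -0.16 to -0.099 in iPSC against Stage2 and -0.20 to -0.11 in iPSC against MEF.

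Replicate numbers were tested as a block although they did not pair the libraries: deviations of same-numbered libraries correlated at -0.10 to 0.11 (over 0.1 in 1 of 18 pairs) and of others at -0.13 to 0.14. With the replicate block the counts of members were 10 higher and 14 lower in Stage1 against MEF, 10 and 4 in Stage2 against Stage1, 1 and 5 in iPSC against Stage2, and 9 and 13 in iPSC against MEF, and 130 of 132 member values kept their side.

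Where no cause is named above, it was not tested. The alternatives for member regions and for other pathway genes, and the subtraction of the read density outside regions, were chosen after seeing the data. Subtraction gave member medians of -0.17, 0.14, -0.33 and -0.61. In pooled shares of reads near a gene end, 500 bp in place of 1 kb changed the difference between iPSC and MEF to -0.32 percentage points. Depth limits the small differences: the shallowest library held 2804 reads near the members, and the counts of calls between later stages moved with single libraries.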
